A study of Mus musculus with 12 samples.

Results

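The genes described are 10 regulators of the G1 to S transition. They were chosen by name and not by a rule on their measured values, though earlier results of these data were known. The 10 are the D-type cyclins *Ccnd1*, *Ccnd2* and *Ccnd3*, the E-type cyclins *Ccne1* and *Ccne2*, the cyclin-dependent kinase (CDK) inhibitors *Cdkn1a*, *Cdkn1b* and *Cdkn2c*, and the retinoblastoma-related genes *Rbl1* and *Rbl2*. They are 10 of 36186 gene rows measured by RNA-Seq in chondrocytes taken by laser capture microdissection (LCM) from the forelimb zeugopod, the segment of the radius and ulna, of E15.5 mouse embryos. The WT libraries came from the resting, the proliferative and the hypertrophic compartment, with 3 of each. The other 3 libraries came from *aadd* embryos, which are homozygous for frameshifts in *Hoxa9*, *Hoxa10* and *Hoxa11* and in their *Hoxd* counterparts (*Hoxd9*, *Hoxd10*, *Hoxd11*). All embryos were of the mixed 129/CD-1 background. The mutant alleles were germline changes that carry a loxP site and a small deletion in the first exon of each of the 6 Hox genes. The sample labels call the hypertrophic libraries hyperproliferative and give the *aadd* libraries the compartment resting. According to the study's methods the whole undifferentiated chondrocyte population of the small *aadd* zeugopod was taken, so that genotype cannot be told apart from the difference in what was captured. The cells were mainly chondrocytes with some flanking perichondrium, and the labels do not tie libraries to embryos. *P* values therefore measure the spread between these libraries, which may be technical in part.

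In a growing cartilage element, round resting chondrocytes feed columns of dividing cells, which then leave the cell cycle and enlarge as hypertrophic chondrocytes. D-type cyclins with CDK4 or CDK6, and E-type cyclins with CDK2, phosphorylate the pocket proteins (pRb, p107 and p130), which releases E2F transcription factors and opens S phase. The inhibitors p21 (*Cdkn1a*), p27 (*Cdkn1b*) and p18 (*Cdkn2c*) block these kinases, and p107 (*Rbl1*) and p130 (*Rbl2*) restrain E2F target genes, p130 mainly in cells that have left the cycle. The comparisons ask how the messages for these proteins are distributed along the WT series and where the undifferentiated *aadd* chondrocytes lie in it.

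Expression was given as NRPKM, reads scaled to transcript length and library size with a further normalization. The scale is meant for comparing levels between genes as well as between libraries. The further scaling was not given and the effect of amplification on each transcript is unknown. Comparisons between genes, and shares or ratios of genes, are therefore approximate. All 10 genes passed the filter on low values, which asked for 5 NRPKM or more in any 3 of the 12 libraries, and none had a value of 0 in any library. Depth was estimated at 1890000 to 3240000 reads a library, taking as 1 read the commonest value above 0 of genes with a single exon that encode odorant and other sensory receptors or keratin-associated proteins. At that depth the lowest value of the 10 genes, *Cdkn2c* in WT hypertrophic replicate 1, rested on about 9.18 reads. The highest read estimate, for *Ccnd2* in a WT hypertrophic library, was about 2080. In bulk samples fewer cells of a type and less RNA per cell cannot be told apart.

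The labels were checked against marker genes. The summed level of 10 prehypertrophic and hypertrophic chondrocyte genes, such as *Ihh*, *Alpl* and *Col10a1*, ran from 74.7 to 112 NRPKM in WT resting, 729 to 1020 in WT proliferative and 1950 to 3950 in WT hypertrophic libraries, with no overlap. In *aadd* it was 49.1 to 82.1. Not every gene of the list followed the sum. *Ihh* was at 20.1, 27 and 40.5 NRPKM in WT proliferative and 56.3, 9.54 and 15.3 in WT hypertrophic libraries. The proliferative libraries thus already held a high level of genes of the next stage. WT hypertrophic replicate 1 stood apart from its other two replicates. Its summed osteoclast marker level was 59.3 NRPKM against 1380 and 1020, its macrophage level 34.2 against 502 and 421, and its endothelial level 21.8 against 303 and 210. Its cartilage matrix level was 2900 against 654 and 932. In the other 9 libraries these osteoclast, macrophage and endothelial sums were 37.9 to 69.4, 15.9 to 64.3 and 5.24 to 38.9 NRPKM. Between WT hypertrophic and resting, all 3 tested macrophage genes, both tested endothelial genes and 3 of 4 tested osteoclast genes were called higher. Each list held 10 genes, and 13.0% of all genes tested were called in that pair. Some, such as *Atp6v0d2* (at most 1.22 NRPKM outside WT hypertrophic), passed the filter only through the hypertrophic libraries, so these counts were partly set by it. WT hypertrophic replicate 1 also lacked high levels of the late hypertrophic genes. *Mmp13*, a matrix protease, was at 3.05 NRPKM against 735 and 661. *Spp1*, osteopontin, was at 24.1 against 1080 and 979. These genes were at most at 6.24 and 18.3 in WT proliferative libraries. The main results for the hypertrophic compartment are therefore also given from replicate 1 alone, an alternative chosen after seeing the data, with the spread pooled over the 10 remaining libraries and the lone library assumed to vary like the other groups.

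*Cdkn1a*, whose protein p21 binds and blocks cyclin-CDK complexes and is the classic target of p53, was the one of the 10 genes that rose along the WT series. It lies on chromosome 17 at 29090986 to 29100722 (mm10, plus strand; identifier 12575) and overlaps no other gene row. RefSeq gives it a pair of start sites. Both promoter windows, 250 bases before to 50 after the start, are shown because the values of this gene carry the main difference described here. The deposited values are per gene and do not separate the starts. Windows were present for 7 of the 10 genes (10 windows, RefSeq, GRCm38.p6). *Ccnd1*, *Ccnd2* and *Ccne2* had none. In the upstream window, chr17:29090729-29091028 (plus strand), capitals mark a pair of p53 half-site cores, ACATGT and again ACATGT with 4 bases between them, letters chosen after the sequence was seen (the bases between are in capitals too). In the downstream window, chr17:29093519-29093818 (plus strand), capitals mark GGGCGG, the GC box bound by Sp1-type factors. Both strands were searched.
*Cdkn1a*, upstream start: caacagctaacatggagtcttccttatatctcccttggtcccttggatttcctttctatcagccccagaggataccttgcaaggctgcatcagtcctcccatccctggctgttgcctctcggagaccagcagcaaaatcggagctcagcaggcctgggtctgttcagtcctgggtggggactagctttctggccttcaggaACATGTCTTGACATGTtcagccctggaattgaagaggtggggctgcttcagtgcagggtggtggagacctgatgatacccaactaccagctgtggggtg
*Cdkn1a*, downstream start: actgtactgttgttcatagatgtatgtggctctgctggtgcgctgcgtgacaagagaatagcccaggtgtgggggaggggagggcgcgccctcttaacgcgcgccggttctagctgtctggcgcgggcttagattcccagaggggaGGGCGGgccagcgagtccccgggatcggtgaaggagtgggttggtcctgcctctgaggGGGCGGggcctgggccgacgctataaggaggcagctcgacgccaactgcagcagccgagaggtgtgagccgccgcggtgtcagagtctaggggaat

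The paired p53 letters began 49 bases before the upstream start. They were picked from this window, so the match was given from the outset and its rarity says nothing about this promoter. Of 32851 RefSeq windows of the same length 4 held them (0.0122%). GC boxes began 104 and 46 bases before the downstream start. That word was held by 35.7% of all windows. These are matches of letters only.

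In the 3 WT resting libraries *Cdkn1a* was at 5.50, 11.5 and 11.1 NRPKM (replicates 1, 2 and 3, as in every list of values here). In WT proliferative it was at 27.1, 27.4 and 39.9 NRPKM. In WT hypertrophic it reached 68.7, 111 and 103 NRPKM. The 3 compartments formed separate steps, with every library of a later compartment above every library of an earlier one. The means were 9.35 ± 3.34, 31.5 ± 7.31 and 94.2 ± 22.5 NRPKM (SD, n = 3).

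From WT resting to WT proliferative *Cdkn1a* rose by 1.79 on the log2(NRPKM + 0.1) scale (SE 0.33), a fold of 3.46, with unadjusted *P* = 0.0013 and adjusted *P* = 0.088 in limma's moderated test over all genes. A gene was called in a pair of WT groups at unadjusted *P* up to 0.05 with a fold of at least 2, the study's criteria. *Cdkn1a* was the only one of the 10 called in this pair, where 5.53% of the 10936 genes tested were called. Adjusted *P* was under 0.05 for none of the 10 in this pair, against 0.622% of all genes tested, while 2 of the 10 (*Cdkn1a* and *Rbl2*) and 17.1% of all genes had an unadjusted *P* up to 0.05. With the replicate number as a block, since same-numbered libraries of these compartments deviated together, 4 of the 10 and 20.2% of all genes did, the added ones being *Ccnd1* (log2 difference -0.48) and *Cdkn2c* (-0.51), both at unadjusted *P* = 0.045 and adjusted *P* = 0.24 in limma. From WT proliferative to WT hypertrophic it rose by a further 1.57 (SE 0.27), a fold of 2.97, with unadjusted *P* = 0.001 and adjusted *P* = 0.12 in limma. It was again the only one of the 10 called, where 9.67% of all genes were. No gene of the 10936 passed an adjusted *P* of 0.05 in limma in that pair, and 2115 (19.3%) had an unadjusted *P* up to 0.05, among them *Cdkn1a* and *Ccne2* of the 10. Across the whole WT span, from resting to hypertrophic, the difference was 3.36 (SE 0.35), a fold of 10.3, with adjusted *P* = 0.0063 in limma. It was the only one of the 10 called in this pair too, where 13.0% of all genes were called, and the only one with adjusted *P* under 0.05, which 6.36% of all genes had.

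The rise of *Cdkn1a* was measured beside the markers that moved with the compartment. WT hypertrophic replicate 1 had low but not absent levels of the osteoclast genes. *Acp5* was at 2.92 NRPKM in it and at 2.51 to 2.9 in WT resting. *Mmp9* was at 10.3 against 1.16 to 3.02 and *Ctsk* at 16 against 3.69 to 11. *Atp6v0d2* was at 5.3 against 0.313 to 1.08. From replicate 1 alone its log2 difference was 2.83 from WT resting and 2.11 from WT proliferative. The macrophage gene *Tyrobp* was at 6.81 against 0.162 to 0.691, though WT proliferative replicate 3 had 11.5. In hypertrophic replicate 1 *Calcr* and *Oscar* were at 0, and *Itgb3* was lower than in WT resting, at 2.08 against 2.81 to 3.88. *Nfatc1*, the main part of the sum in WT resting, was also lower at 20.9. *Cdkn1a* stood at 68.7 NRPKM in that library, above all 6 resting and proliferative libraries. From that library alone the log2 difference from WT resting was 2.94 (adjusted *P* = 0.03 in limma). Its difference from WT proliferative was 1.15 (unadjusted *P* = 0.07 in limma), which no longer passed. The part of osteoclasts, macrophages and endothelial, erythroid, osteoblast or perichondrial cells in the *Cdkn1a* level of the hypertrophic libraries was not tested. WT proliferative replicate 3, the highest of its group for *Cdkn1a*, had skeletal muscle and osteoblast or perichondrial sums of 134 and 1190 NRPKM. In its other replicates these were at most 17 and 511. The part of such cells in its *Cdkn1a* level was not tested. Without that library the log2 difference of *Cdkn1a* from WT resting was 1.61.

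**Figure D1:**
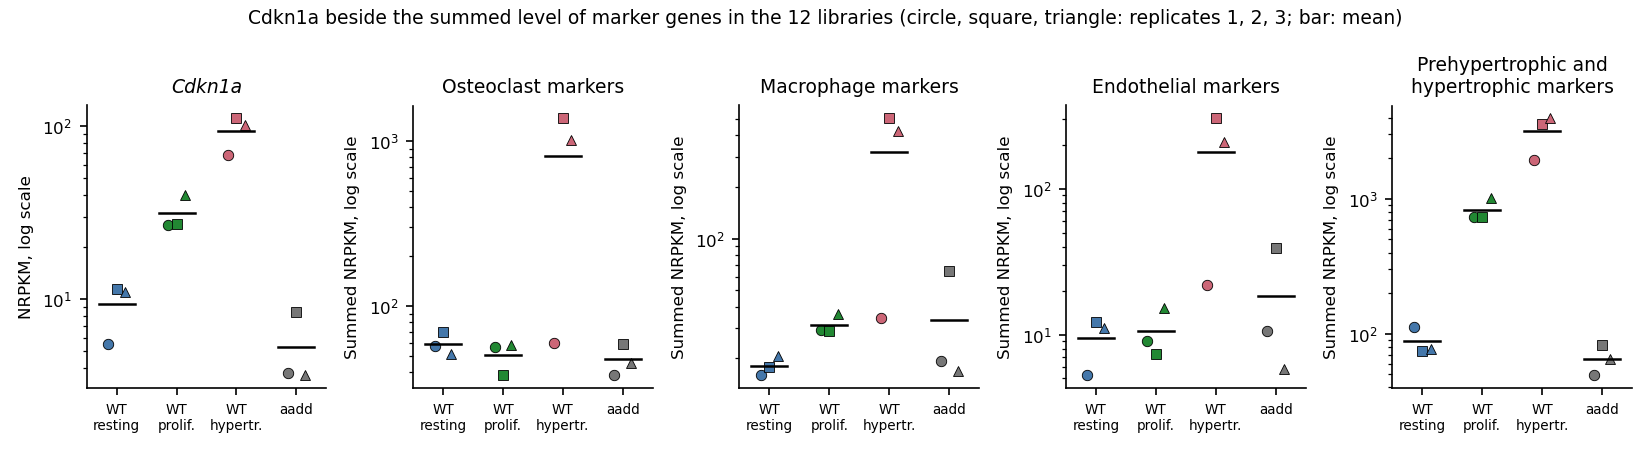
Level of *Cdkn1a* (NRPKM) and summed level of 4 marker lists (summed NRPKM), all on log axes, in the 12 libraries. Symbols are replicates and bars are group means. *Cdkn1a* and the chondrocyte stage markers form 3 separate WT steps, while the osteoclast sum of hypertrophic replicate 1 (59.3 NRPKM) lies far below those of the other two (1380 and 1020 NRPKM).

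The other 2 inhibitors among the 10 showed no such steps. *Cdkn1b* (chromosome 6, 134920401 to 134925525) encodes p27, which binds cyclin E-CDK2. It was at 8.59, 11.9 and 9.73 NRPKM in WT resting, 7.46, 12.6 and 13.6 in WT proliferative and 11.0, 8.32 and 6.99 in WT hypertrophic libraries. All groups overlapped, and the 95% interval of the log2 difference was -0.77 to 0.35 between hypertrophic and resting. *Cdkn1b* and *Cdkn1a* were thus at like levels in WT resting chondrocytes, at means of 10.1 and 9.35 NRPKM, and far apart in WT hypertrophic ones, at 8.76 and 94.2 NRPKM.

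*Cdkn2c* (chromosome 4, 109660876 to 109666657) encodes p18, an inhibitor of CDK4 and CDK6. It was the lowest of the 10 in the hypertrophic libraries. It was at 3.82, 12.4 and 6.22 NRPKM in WT resting, 3.34, 6.95 and 4.28 in WT proliferative and 1.59, 4.16 and 4.50 in WT hypertrophic libraries. The resting libraries spread over more than the difference between groups, though each proliferative library was below the resting library of the same number. The log2 difference from resting to hypertrophic was -1.07, with a 95% interval of -2.41 to 0.26 (unadjusted *P* = 0.097 in limma). It passed the criteria with the spread taken from all 12 libraries (unadjusted *P* = 0.044 in limma) and with the replicate numbers as a block (unadjusted *P* = 0.017 in limma). It also passed without WT resting replicate 1, at -1.47, and from hypertrophic replicate 1 alone, at -2.0.

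Of the other CDK inhibitors, *Cdkn1c* and *Cdkn2d* passed the filter and neither was called in any comparison. *Cdkn1c* encodes p57 and is named because its level, seen in the data, was the highest of any inhibitor. It was at 256, 182 and 238 NRPKM in WT resting and 234, 285 and 275 in WT proliferative libraries. In WT hypertrophic it was at 285 in replicate 1, and at 67.8 and 92.3 in the other two, the libraries with the low cartilage matrix level. *Cdkn1a* was thus below *Cdkn1c* in hypertrophic replicate 1 and above it in replicates 2 and 3.

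**Figure D2:**
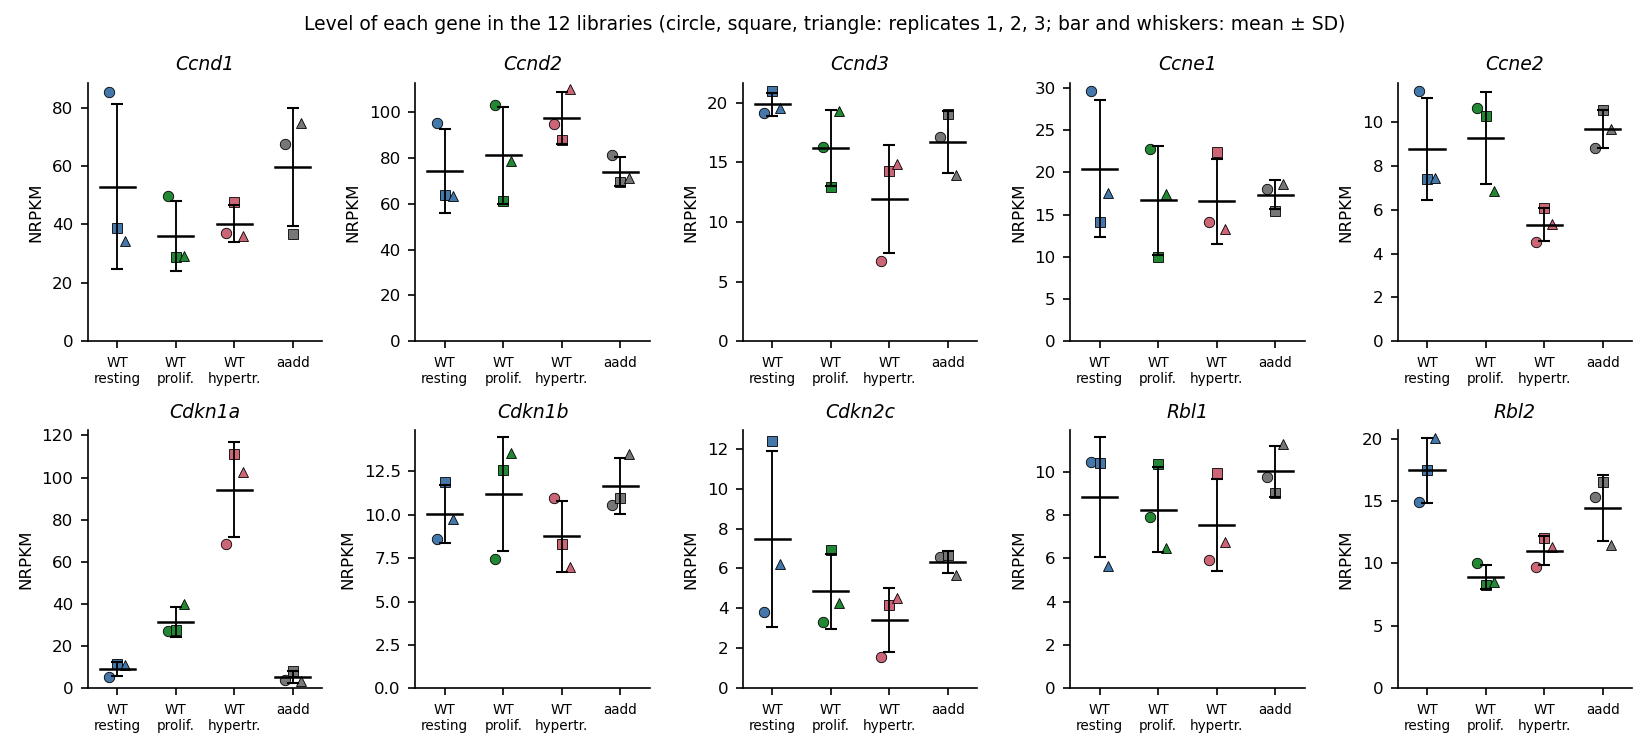
Level in NRPKM of the 10 genes in the 12 libraries, on linear axes from 0. Symbols are replicates 1, 2 and 3, bars are means and whiskers are SD. *Cdkn1a* climbs from 9.35 to 94.2 NRPKM across WT compartments, and *Rbl2* is highest in WT resting at 17.5 NRPKM.

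The D-type cyclins are the partners of CDK4 and CDK6 and the sensors of growth factor signals. Their summed level overlapped between the groups of every comparison (exact permutation *P* of 0.5 or more, two-sided), with means of 147 ± 46 NRPKM in WT resting, 133 ± 33.5 in WT proliferative, 150 ± 11.2 in WT hypertrophic and 151 ± 22.1 in *aadd* (SD, n = 3). None of the 3 genes was called in any pair. *Ccnd2* (chromosome 6, 127125709 to 127151048) was the most abundant of the 10 in every group by its mean. It was at 95.4, 63.7 and 63.5 NRPKM in WT resting, 103, 61.5 and 78.7 in WT proliferative and 94.8, 88.1 and 110 in WT hypertrophic libraries, with overlap throughout.

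*Ccnd1* (chromosome 7, 144929931 to 144939925) was at 85.5, 38.9 and 34.4 NRPKM in WT resting, 49.7, 28.8 and 29.2 in WT proliferative and 37.1, 47.7 and 36.0 in WT hypertrophic libraries. Replicate 1 was the highest in both of the earlier compartments, and each proliferative library was below the resting library of the same number. All 3 groups overlapped, and the 95% interval of the log2 difference between hypertrophic and resting was -1.18 to 0.61. *Ccnd3* (chromosome 17, 47505051 to 47599689) was the least abundant of the 3. It was at 19.1, 21.0 and 19.5 NRPKM in WT resting, 16.3, 13.0 and 19.3 in WT proliferative and 6.70, 14.2 and 14.8 in WT hypertrophic libraries. Every hypertrophic library was below every resting one, with a log2 difference of -0.82 (SE 0.33, unadjusted *P* = 0.045, adjusted *P* = 0.18 in limma). The fold of 0.568 missed the criterion. Without hypertrophic replicate 3 it passed, at -1.01, and from replicate 1 alone the difference was -1.55 (adjusted *P* = 0.022 in limma).

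The share of each gene in the D-type sum was also compared, and none passed a test. *Ccnd2* made up 51.1% ± 3.19 of the sum in WT resting, 60.8% ± 1.19 in WT proliferative and 65.2% ± 5.58 in WT hypertrophic libraries (SD, n = 3). Every proliferative and every hypertrophic library was above every resting one, at 58.7% or more against 54% or less. *Ccnd3* made up 14.4% ± 4.18, 12.5% ± 2.79 and 7.84% ± 2.61, the hypertrophic libraries below all other WT ones. *Ccnd1* made up 34.5% ± 7.2, 26.7% ± 3.36 and 27% ± 4.7, with overlap. An exact permutation test of 3 libraries against 3 cannot give less than 0.1, two-sided. It gave 0.1 for the *Ccnd2* share of WT proliferative and of WT hypertrophic against resting and for the *Ccnd3* share in the pairs with WT hypertrophic, 0.34 after adjustment over 24 such tests. *Cdkn1a* was at 0.0716 ± 0.0382 of the D-type sum in WT resting, 0.246 ± 0.0788 in WT proliferative and 0.625 ± 0.124 in WT hypertrophic libraries, without overlap and with the same exact *P* of 0.1 in each pair.

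The E-type cyclins activate CDK2 at the entry into S phase. *Ccne1* (chromosome 7, 38097984 to 38107490) was at 29.6, 14.2 and 17.6 NRPKM in WT resting, 22.8, 9.93 and 17.4 in WT proliferative and 14.1, 22.4 and 13.3 in WT hypertrophic libraries. All groups overlapped, with a log2 difference between hypertrophic and proliferative of 0.03 that was -0.07 after quantile normalization. *Ccne2* (chromosome 4, 11191354 to 11204779) was at 11.5, 7.40 and 7.44 NRPKM in WT resting and 10.7, 10.3 and 6.84 in WT proliferative libraries. In WT hypertrophic it was at 4.54, 6.08 and 5.36, below all 6 earlier libraries. The log2 difference was -0.77 from proliferative (SE 0.24, unadjusted *P* = 0.018, adjusted *P* = 0.19 in limma) and -0.69 from resting (SE 0.24, unadjusted *P* = 0.026, adjusted *P* = 0.13 in limma), short of the fold criterion in both. From hypertrophic replicate 1 alone these were -0.99 and -0.90.

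**Figure D3:**
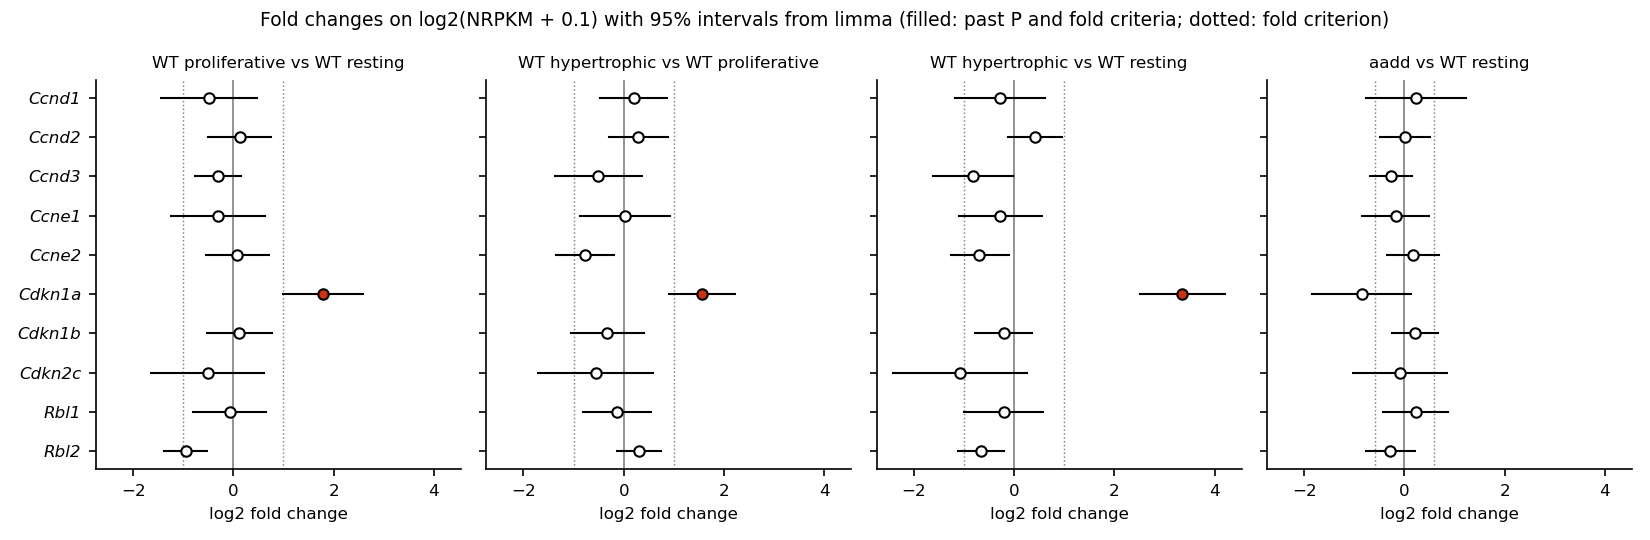
Log2 fold change of the 10 genes in 4 comparisons, on the log2(NRPKM + 0.1) scale, with 95% intervals from limma. Filled points passed unadjusted *P* up to 0.05 with the fold criterion, shown by dotted lines (2-fold between WT groups, 1.5-fold for *aadd*), which was *Cdkn1a* alone in the 3 WT pairs and no gene for *aadd*.

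The pocket protein genes gave the second pattern among the 10. *Rbl2* encodes p130 and lies on chromosome 8 at 91070094 to 91123844 (plus strand; identifier 19651), where its row overlaps that of *Aktip*. *Rbl1* encodes p107 and lies on chromosome 2 at 157145894 to 157204534 (minus strand; identifier 19650), overlapping *Gm14277*. How reads of overlapping genes were assigned was not given in the sources used here. The promoter windows of these related genes are shown because their values differed. Capitals mark GGGCGG on either strand (as CCGCCC on the reverse) and the E2F letters TTTCCCGC, TTTCGCGC, TTTGCCGC or TTTGGCGC on either strand. The windows are chr8:91069807-91070106 (plus strand) and chr2:157204485-157204784 (minus strand).
*Rbl2*: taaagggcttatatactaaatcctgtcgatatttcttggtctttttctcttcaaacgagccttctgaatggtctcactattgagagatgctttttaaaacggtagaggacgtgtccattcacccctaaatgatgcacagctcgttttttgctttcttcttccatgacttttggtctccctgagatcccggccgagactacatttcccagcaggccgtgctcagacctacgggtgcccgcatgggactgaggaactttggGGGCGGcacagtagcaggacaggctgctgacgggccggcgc
*Rbl1*: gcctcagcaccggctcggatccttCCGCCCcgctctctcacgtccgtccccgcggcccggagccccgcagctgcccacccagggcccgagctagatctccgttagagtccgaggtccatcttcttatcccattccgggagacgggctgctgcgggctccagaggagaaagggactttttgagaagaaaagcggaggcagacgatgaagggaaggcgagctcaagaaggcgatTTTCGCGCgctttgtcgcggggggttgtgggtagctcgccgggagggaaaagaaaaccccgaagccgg

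The *Rbl1* window held a GC box 226 bases before the start and TTTCGCGC 18 bases before it, the only match to the 4 E2F words in the 10 windows. Of all RefSeq windows 2.26% held at least 1 of these words. The *Rbl2* window held a GC box 10 bases after its start and none of the E2F words. No matches shared bases in the windows shown.

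*Rbl2* was at 14.9, 17.5 and 20.1 NRPKM in WT resting, 10.0, 8.24 and 8.53 in WT proliferative and 9.73, 12 and 11.3 in WT hypertrophic libraries. All 3 resting libraries were above all 6 of the later compartments, and those 2 compartments overlapped each other. The log2 difference from resting was -0.95 in proliferative (SE 0.18, unadjusted *P* = 0.0015, adjusted *P* = 0.091 in limma) and -0.65 in hypertrophic libraries (SE 0.19, unadjusted *P* = 0.012, adjusted *P* = 0.092 in limma). The first of these is a fold of 0.516, just short of the criterion. It passed without WT resting replicate 1 (-1.06) or WT proliferative replicate 1 (-1.04), which brought the count of genes called in that pair to 2.

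*Rbl1* was at 10.5, 10.4 and 5.65 NRPKM in WT resting, 7.91, 10.4 and 6.48 in WT proliferative and 5.90, 9.92 and 6.77 in WT hypertrophic libraries. The groups overlapped in every pair, and the 95% interval between hypertrophic and resting was -0.99 to 0.57 on the log2 scale.

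Groups that did not overlap were seen for 2 of the 10 genes between WT proliferative and resting (*Cdkn1a* and *Rbl2*, against 24.0% of all genes tested), for 2 between hypertrophic and proliferative (*Cdkn1a* and *Ccne2*, 24.2%) and for 4 between hypertrophic and resting (*Cdkn1a*, *Ccnd3*, *Ccne2* and *Rbl2*, 32.0%). The counts of the 10 were thus near the share among all genes. In limma's F test over the 4 groups 2 of the 10 had adjusted *P* under 0.05, against 13.8% of all genes. These were *Cdkn1a* (adjusted *P* = 0.00045) and *Rbl2* (adjusted *P* = 0.024). *Ccne2* followed at adjusted *P* = 0.073. The result for *Rbl2* was lost when all genes were tested without a filter (adjusted *P* = 0.1 in limma), with the replicate numbers as a block (0.052), and without any of WT resting replicates 2 and 3, WT proliferative replicates 2 and 3 or WT hypertrophic replicate 3 (0.06 to 0.068).

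*Rb1*, the third pocket protein gene, was on the list of pathway genes and not among the 10. It rose in hypertrophic libraries against both other WT compartments. It was at 4.81, 6.61 and 6.18 NRPKM in WT resting, 11.8, 12.8 and 8.8 in WT proliferative and 32.5, 19.9 and 17 in WT hypertrophic libraries. The 3 groups did not overlap. The log2 difference was 0.91 from resting to proliferative (unadjusted *P* = 0.0047, adjusted *P* = 0.14 in limma), under the fold criterion, 1.01 from proliferative to hypertrophic (unadjusted *P* = 0.014, adjusted *P* = 0.18 in limma) and 1.92 over the whole span (adjusted *P* = 0.019 in limma). Hypertrophic replicate 1, the library with low osteoclast and macrophage marker sums, had the highest value of the 12.

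The makeup of the pocket protein messages was computed after these values were seen and is given as a description. *Rbl2* made up 54.3% ± 7.48 of the sum of *Rb1*, *Rbl1* and *Rbl2* in WT resting libraries, 31.9% ± 5.03 in WT proliferative and 27.1% ± 6.17 in WT hypertrophic (SD, n = 3). *Rb1* made up 18.2% ± 1.93, 39.1% ± 1.96 and 54.5% ± 11.3. The lead among these genes thus passed from *Rbl2* in every resting library to *Rb1* in every proliferative and hypertrophic one. In WT proliferative replicate 3 the lead was narrow, at 37% for *Rb1* and 35.8% for *Rbl2*. *Rbl1* made up 27.5% ± 8.8, 28.9% ± 3.51 and 18.4% ± 5.77.

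**Figure D4:**
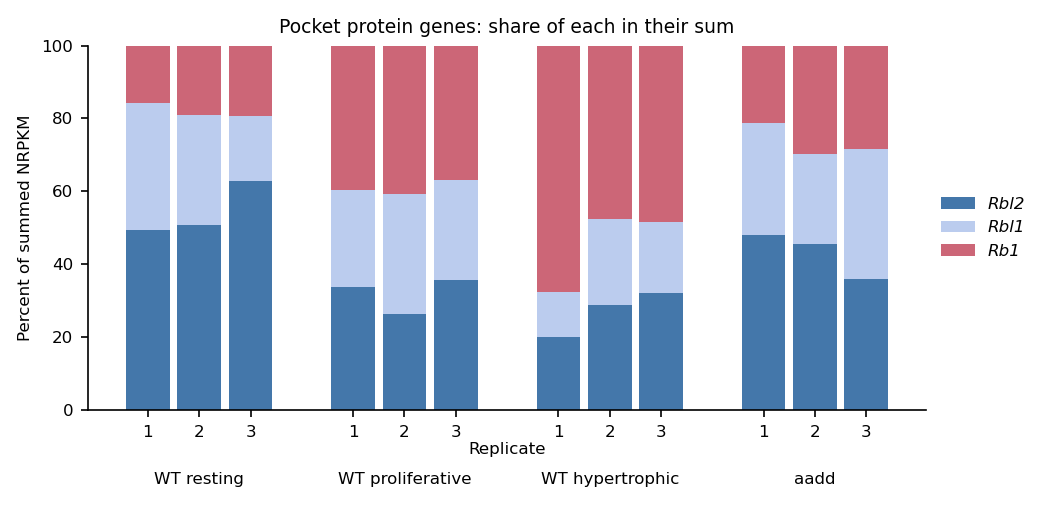
Share of *Rbl2*, *Rbl1* and *Rb1* in their summed NRPKM, as percent, for each of the 12 libraries. *Rbl2* is the largest part in the WT resting and *aadd* libraries (36.1% to 62.9%) and *Rb1* in the WT proliferative and hypertrophic ones (37% to 67.5%).

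The *aadd* chondrocytes were compared with WT resting ones. *Ccnd1*, *Ccnd2*, *Ccne1*, *Cdkn1b*, *Cdkn2c* and *Rbl1* overlapped among all 3 WT compartments, so their levels cannot place *aadd* in the WT series. None of the 10 was called between *aadd* and WT resting at unadjusted *P* up to 0.05 with a fold of at least 1.5, where 6.56% of all genes were, none had an unadjusted *P* up to 0.05 (9.58% of all genes had), and none an adjusted *P* under 0.05 in limma (0.119%). *Cdkn1a* had the largest difference. It was at 3.75, 8.43 and 3.63 NRPKM in *aadd* against 5.50, 11.5 and 11.1 in WT resting, a log2 difference of -0.85 (SE 0.42, unadjusted *P* = 0.081, adjusted *P* = 0.6 in limma). Those *aadd* values rested on about 21.6 to 38.5 reads a library. The groups overlapped through *aadd* replicate 2 and WT resting replicate 1. These 2 libraries decided the call: without the first of them the difference was -1.24 (unadjusted *P* = 0.013 in limma) and without the second it was -1.20 (unadjusted *P* = 0.021 in limma), both past the criteria. With the spread taken from all 12 libraries, or with the replicate block, unadjusted *P* was 0.048 and 0.03 and the gene was also called.

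In *aadd* replicate 2 the endothelial and macrophage marker sums were 38.9 and 64.3 NRPKM, against at most 10.5 and 19.2 in the other two *aadd* libraries. Their part in its *Cdkn1a* level was not tested. All 3 *aadd* libraries were below every WT proliferative and WT hypertrophic library for *Cdkn1a*. On the ratio to the D-type sum *aadd* stood at 0.0375 ± 0.0258 and WT resting at 0.0716 ± 0.0382, with overlap (exact permutation *P* = 0.2, two-sided).

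*Rbl2* was the largest part of the pocket protein sum in all 3 *aadd* libraries, as in WT resting, though by only 36.1% to 35.4% for *Rbl1* in *aadd* replicate 3. *Rbl2* was at 15.3, 16.5 and 11.5 NRPKM, with a 95% interval of -0.77 to 0.21 for the log2 difference from WT resting, and it made up 43.2% ± 6.31 of the pocket protein sum. Replicate 3 was below the resting range, within that of the hypertrophic libraries. All 3 *aadd* values of *Rbl2* were above those of the WT proliferative libraries (8.24 to 10.0 NRPKM). *Rbl1* was at 9.77, 9.0 and 11.3 NRPKM and overlapped all WT groups. *Rb1* was at 6.77, 10.8 and 9.06, each above the highest WT resting library (log2 difference 0.58, unadjusted *P* = 0.04, adjusted *P* = 0.49 in limma), just short of the 1.5-fold criterion.

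Among the cyclins *Ccnd3* alone did not overlap between *aadd* and WT resting, at 17.1, 19.1 and 13.9 NRPKM against 19.1, 21.0 and 19.5, the highest of the former below the lowest of the latter by less than the rounding shown. Its log2 difference was -0.26 (SE 0.17, unadjusted *P* = 0.18, adjusted *P* = 0.7 in limma), and 15.4% of all genes tested did not overlap in this pair. *Ccnd1* was at 67.5, 36.6 and 75.0 NRPKM in *aadd* and *Ccnd2* at 81.6, 69.6 and 71.3. *Ccne1* was at 18.0, 15.4 and 18.7 and *Ccne2* at 8.85, 10.6 and 9.71. All 4 overlapped WT resting, with 95% intervals of the log2 difference of -0.76 to 1.23, -0.48 to 0.52, -0.84 to 0.50 and -0.34 to 0.69 in that order. *Ccne2* in *aadd* was also above all 3 WT hypertrophic libraries, and *Ccnd2* was below all 3 of them (88.1 to 110 NRPKM). *Cdkn1b* was at 10.6, 11.0 and 13.5 NRPKM and *Cdkn2c* at 6.58, 6.67 and 5.68, inside or near the WT resting range. Each of these *Cdkn2c* values was above the WT hypertrophic libraries, which were at 4.50 NRPKM or less.

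Other genes of the pathway were followed as lists. Of 10 kinases and kinase activators (CDKs, the CDK-activating subunits and the Cdc25 phosphatases), none was called between WT groups and 1, *Mnat1*, a subunit of the CDK-activating kinase, rose in *aadd*, from 5.98 ± 1.25 to 9.16 ± 0.998 NRPKM (SD, n = 3, unadjusted *P* = 0.021, adjusted *P* = 0.41 in limma), where 6.56% of all genes were called. In the F test *Cdc25c*, a phosphatase that activates CDK1, and *Cdk6*, a partner of the D-type cyclins, had adjusted *P* of 0.018 and 0.044 in limma. *Cdc25c* was at 17.1 ± 3.55 NRPKM in WT resting, 16.2 ± 3.24 in WT proliferative, 8.45 ± 0.431 in WT hypertrophic and 14.5 to 17.2 in *aadd*. *Cdk6* was at 23.3 ± 8.33, 32.7 ± 5.64, 31.5 ± 3.21 and 14.5 ± 3.71 NRPKM in the same order. The log2 difference of *Cdc25c* from WT resting to hypertrophic was -0.99 without overlap (adjusted *P* = 0.042 in limma), just short of the fold criterion.

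Of 16 tested genes of the Rb, E2F and DREAM complex list, *Rb1* alone was called, higher in hypertrophic libraries than in either other WT compartment. None of 4 tested S and M phase cyclins and none of 7 tested genes for the turnover of cyclins and inhibitors was called in any of the 4 comparisons. None of 15 tested proliferation markers was called either. In the pair of WT hypertrophic and resting, 14 of those 15 had a lower mean log2 level in hypertrophic libraries, with a median log2 difference of -0.26 against -0.02 for all genes tested. Several were near 0 (*Tyms* at -0.02, *Rrm2* at -0.05 and *Mcm4* at -0.07), and the mean NRPKM of the last 2 was higher in hypertrophic libraries. *Mki67*, named after its values were seen as the commonest marker of dividing cells, was at 97 ± 5.21 NRPKM in WT resting, 84.1 ± 1.92 in WT proliferative, 62.9 ± 12.1 in WT hypertrophic and 90.5 ± 4.85 in *aadd*. The summed level of the proliferation markers was 488 to 682 NRPKM in WT resting, 450 to 561 in WT proliferative and 356 to 626 in WT hypertrophic libraries. The lowest was in hypertrophic replicate 1. The proliferative libraries had a lower mean log2 level than resting ones for 13 of the 15. The median log2 difference there was -0.07, against -0.06 for all genes tested. Between resting and hypertrophic libraries, *Cdkn1a* thus rose 10.3-fold while no proliferation marker passed both the *P* and the fold criterion. That does not mean that none fell. The log2 difference of *Mki67* in this pair was -0.64 without overlap (unadjusted *P* = 0.015, adjusted *P* = 0.1 in limma), short of the fold criterion.

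Of 9 tested genes of the p53 pathway list, 1 was called higher in WT proliferative than in resting libraries (5.53% of all genes tested were called in either direction), 3 in hypertrophic than in proliferative (9.67%) and 3 in hypertrophic than in resting (13.0%), and none was called lower. *Gadd45g*, a growth arrest gene, was called in all 3 pairs, with means of 2.77 ± 0.735, 7.33 ± 1.09 and 22.8 ± 3.05 NRPKM (SD, n = 3; adjusted *P* = 0.0035 in limma from resting to hypertrophic). *Trp53inp1* and *Phlda3*, both p53 targets, were called in the pairs with hypertrophic libraries. *Phlda3* passed the filter only through the hypertrophic libraries. *Gadd45g* passed it only through the proliferative and hypertrophic ones (at most 3.37 NRPKM in WT resting and *aadd*). The counts called from this list were thus partly set by the filter. *Phlda3* was at 6.27 NRPKM in hypertrophic replicate 1, beside 5.87 in resting replicate 3 and 5.47 in proliferative replicate 1, and at 14.9 and 12.8 in the other two hypertrophic libraries, those with the high osteoclast, macrophage and endothelial sums. From replicate 1 alone *Phlda3* was not called in either pair (unadjusted *P* = 0.12 and 0.38 in limma), while *Gadd45g*, *Trp53inp1* and *Rb1* were called in both. *Trp53inp1* was at 3.66, 3.53 and 5.43 NRPKM in WT resting and 8.75, 21.6 and 14.3 in WT hypertrophic libraries (adjusted *P* = 0.046 in limma). *Ccng1* and *Gadd45b* had adjusted *P* of 0.023 and 0.049 in limma's F test. None of the 9 was called in *aadd*, where *Gadd45g* was at 2.21 ± 1.19 NRPKM. *Trp53* itself was at 70.9 ± 7.79, 61.4 ± 11.6 and 74 ± 16.1 NRPKM across the WT series, and it was looked up after the others were seen.

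The genes whose pattern over the 12 libraries was most like that of *Cdkn1a*, by Pearson *r* on log2(NRPKM + 0.1), were *Rreb1* (0.983), *Gpr133* (0.981) and *Colec12* (0.980). For *Rbl2* they were LOC100503956 (0.954), *Unk* (0.942) and *Emilin1* (0.919). For *Ccne2* they were *Ska1* (0.924), *Cenpi* (0.916) and *Cenpa* (0.915), which encode parts of the kinetochore and its chromatin. These correlations describe 12 libraries that share their groups and are picked from all genes tested. *Gpr133* went from a mean of 0.726 NRPKM in WT resting to 31 in WT hypertrophic libraries, and *Emilin1* from 46.5 to 23.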

How the data were processed

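RNA was isolated by LCM in 3 independent sets per group, amplified (NuGEN Ovation V2) and sequenced after Nextera tagmentation. The authors discarded reads of poor quality, reads placed at several positions and duplicates, and deposited RPKM values with a further normalization (NRPKM) for 36186 gene rows on mm10. TopHat is named in the submitters' processing notes. The use of strand and the scaling between libraries were not given in the sources used here. How the kit's amplification affects each transcript is unknown.

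Here limma 3.58.1 (R 4.3.3) was run on log2(NRPKM + 0.1), a scale that understates changes of low genes, for the 10936 genes that reached 5 NRPKM in 3 or more of the 12 libraries. Each pair was fitted on its 6 libraries and an F test on all 12, with Benjamini-Hochberg adjustment, and tested on simulated data. Shares were compared by an exact permutation test. Replicate numbers are shared between groups. Every pair and the F test were also fitted with the number as a block. Same-numbered libraries deviated together between WT proliferative and resting (*r* = 0.281, 0.179 and 0.198). In the other pairs *r* ran from -0.097 to 0.280, so the block has less ground there. The labels give no batch. Depth estimates cover counting error only. The 10 genes, the gene lists and the rule for naming genes (all 10, genes of the lists that were called, at most 4 a list and comparison, and the 3 most similar genes for 3 of the 10) were chosen with earlier results of these data known. Alternatives were a pseudocount of 1, no filter, median-of-ratios scaling, quantile normalization, all 12 libraries in a single fit, the block, and each library left out. Hypertrophic replicate 1 alone was added after seeing the data.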

Additional observations from a re-analysis of the deposited data

How the results depend on the processing

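Of 500 fold changes of the 10 genes under the alternatives, 456 kept their direction and side of the criteria, 1 lost its call, 14 gained one and 29 changed sign. *Cdkn1a* kept its call in all 3 WT pairs under every alternative except between WT hypertrophic and proliferative from hypertrophic replicate 1 alone (1.15). Its adjusted *P* in limma ran from 0.054 to 0.22 for proliferative against resting, from 0.012 to 0.56 for hypertrophic against proliferative and from 0.00054 to 0.039 for hypertrophic against resting. The cause of the changes below was not tested.

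With all 12 libraries in a single fit, 1 gene had adjusted *P* under 0.05 in limma for proliferative against resting (*Rbl2*) and 1 for hypertrophic against proliferative (*Cdkn1a*). For hypertrophic against resting 2 were called (*Cdkn1a* and *Cdkn2c*) and 2 had adjusted *P* under 0.05 (*Cdkn1a* and *Rbl2*), and for *aadd* 1 was called (*Cdkn1a*). With the replicate block 2 were called for hypertrophic against resting (*Cdkn1a* and *Cdkn2c*), 1 for *aadd* (*Cdkn1a*), and 1 was left in the F test, as also with no filter on low values. The block changed no call of the 10 between WT proliferative and resting. It raised those with an unadjusted *P* up to 0.05 in limma from 2 to 4 (with *Ccnd1* and *Cdkn2c*). In the other pairs of groups the correlations of same-numbered libraries ran from -0.097 to 0.280, and none of those pairs had all 3 over 0.1. From hypertrophic replicate 1 alone 2 were called against proliferative (*Ccnd3* and *Cdkn2c*), and 3 were called (those and *Cdkn1a*) and 2 had adjusted *P* under 0.05 (*Ccnd3* and *Cdkn1a*) against resting. *Ccne1* then reversed to -0.16 against proliferative, and *Cdkn1b* to 0.02 against proliferative and 0.14 against resting. Under quantile normalization *Rbl1* reversed to 0.03 for proliferative against resting and *Ccne1* to -0.07 for hypertrophic against proliferative.

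Leaving out each library in turn gave 1 to 2 genes called for proliferative against resting (2 without replicate 1 of either group, with *Rbl2*), 0 to 1 with adjusted *P* under 0.05 for hypertrophic against proliferative (1 without hypertrophic replicate 1, *Cdkn1a*), 1 to 2 called for hypertrophic against resting (2 without resting replicate 1, with *Cdkn2c*, or hypertrophic replicate 3, with *Ccnd3*), 0 to 1 called for *aadd* (*Cdkn1a*) and 1 to 2 in the F test (1 without resting replicates 2 or 3, proliferative replicate 2 or hypertrophic replicate 3). *Ccne2* entered the F test without proliferative replicate 3 (adjusted *P* = 0.047 in limma) and under quantile normalization (0.039). The log2 differences that changed sign on leaving out a library were small. For proliferative against resting they ran from -0.07 to 0.32 (*Ccnd2*), -0.56 to 0.03 (*Ccne1*), -0.03 to 0.29 (*Ccne2*), -0.04 to 0.39 (*Cdkn1b*) and -0.36 to 0.09 (*Rbl1*). For hypertrophic against proliferative they ran from -0.30 to 0.29 (*Ccne1*) and -0.35 to 0.04 (*Rbl1*). For hypertrophic against resting they ran from -0.53 to 0.13 (*Ccnd1*) and -0.51 to 0.03 (*Ccne1*). For *aadd* against resting they ran from -0.02 to 0.64 (*Ccnd1*), -0.08 to 0.22 (*Ccnd2*), -0.40 to 0.13 (*Ccne1*), -0.47 to 0.36 (*Cdkn2c*) and -0.07 to 0.37 (*Rbl1*). None of these 14 had passed a test. Depth limits *Cdkn2c* most, with 9.18 to 73.5 estimated reads a library.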
